A study of Mus musculus with 4 samples.

Results

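The lysosomal glycosidases described here are the 9 genes Glb1, Glb1l, Glb1l2, Galc, Gla, Hexa, Gusb, Neu1 and Man2b1, taken by their symbol from a deposited table of 24216 rows. Glb1 has no row of its own and was read from a row that joins it with Tmppe, a gene that lies inside the Glb1 locus, so its value cannot be split between them. The table compares cells of molar pulp with cells of incisor pulp from XLacZ4 mice, 2 libraries per tissue. XLacZ4 animals carry a bacterial beta-galactosidase (LacZ) reporter that is active in mural cells, the pericytes and smooth muscle cells around small vessels. The teeth were broken down to single cells and loaded with FDG, which turns fluorescent once a beta-galactosidase has cut it, and the positive cells were sorted. The genotype and handling are the same for both tissues in the labels, which give no age and do not say whether libraries of a tissue came from separate or pooled animals; the incisor libraries' protocol text names molars, and tissue was taken from their title, source and tissue labels.

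Lysosomal glycosidases are enzymes that strip sugars, from the outer end inward, off glycolipids, glycoproteins and glycosaminoglycans delivered to the acid interior of the lysosome. Most are tagged with mannose 6-phosphate in the Golgi, carried to the lysosome by receptors for that tag, and helped there by activator proteins that present lipid substrates. Because loss of any of several of them leads to a storage disease, they are known mainly from such diseases. Glb1 has a second interest in these cells: it is the mouse's own beta-galactosidase, which also accepts FDG, the substrate used for the sort. Its level was thus read only in cells selected for beta-galactosidase activity, and the part of Glb1 in that selection was not tested.

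Levels below are FPKM (fragments counted per kilobase of transcript, scaled to sequencing depth) from the authors' deposited table, which holds 1 combined value per tissue, so no level carries an SD or an n and the depth is unknown. A gene is named as called where the authors' q, their p adjusted over all genes tested, lies under 0.05. Of the 9 genes, all tested, the authors' deposited table calls 3 higher in molar (Hexa, Gla and Neu1) and 0 in the opposite direction. Over all 18770 tested genes, the share called was 11.9% toward molar and 4.28% toward incisor. At an unadjusted p under 0.05 in the authors' deposited table stood 6 of the 9, 5 with the higher level in molar and 1 in incisor, against 27.0% of all tested genes in either direction. No other tool could be run on 1 value per tissue.

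By level alone, 5 of the 9 stood higher in molar and 4 in incisor, while 61.3% of all tested genes stood higher in molar. Of all tested genes, 2753 were at 0 FPKM in incisor and 142 in molar, and the cause of that difference was not tested. The median of log2((molar FPKM + 1) / (incisor FPKM + 1)) over the 9 was 0.90, beside 0.14 over the 13198 tested genes at 1 FPKM or more in either tissue. That median sits on Gusb, the middle gene of an uneven set: without Glb1, or without Hexa, it was 0.30. The total of all molar FPKM exceeded that of incisor by 0.60 on the log2 scale, and with both totals set equal the median of the 9 was 0.32. That scaling lowers every molar level by the same factor. The median over all tested genes was not recomputed with it, so 0.32 is not comparable with 0.14. All 9 kept their sign with equal totals and under the other scalings and pseudocounts tried. A pseudocount cannot change a sign, and each scaling tried lowered molar against incisor. Only the 5 genes with the higher level in molar could thus have changed sign. With equal totals the log2 differences of the called genes were 2.90 for Hexa, 1.01 for Gla and 0.90 for Neu1, and whether they would then be called could not be recomputed.

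**Figure D1:**
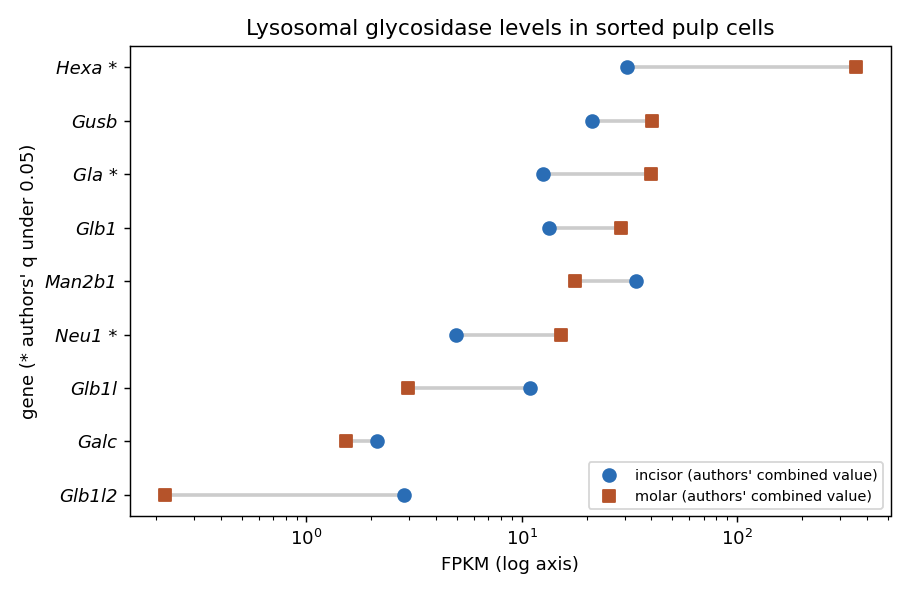
FPKM of the 9 glycosidase genes (log axis) in incisor (circles) and molar (squares), each point the authors' combined value of a tissue, with an asterisk at genes whose q lies under 0.05. Hexa spans the widest upward distance, from 30.7 in incisor to 356 in molar, and Glb1l2 the widest the other way, from 2.83 to 0.220.

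None of the 3 members of the beta-galactosidase family was called. Glb1 removes terminal beta-linked galactose from the ganglioside GM1 and from keratan sulfate, and its loss causes GM1 gangliosidosis and Morquio B disease. Its joined row (mm10 chromosome 9, 114401078 to 114474379, plus strand) stood at 13.4 FPKM in incisor and 29.0 in molar in the authors' deposited table. The molar level was thus 2.17-fold the incisor level, with a log2 fold of 1.12, and the authors' deposited table gives p = 0.0281 and q = 0.124, so it was not called. On the log2 scale with a pseudocount of 1, its difference of 1.06 was 0.49 with equal FPKM totals. Of the annotated exon bases of Glb1, 6.89% are also exon of Tmppe, which shares its start.

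Glb1l and Glb1l2 encode relatives of Glb1 in the same glycoside hydrolase family, and what they cut in the body is less well known. Glb1l (chromosome 1, 75192160 to 75210778, minus strand) stood at 10.9 FPKM in incisor and 2.96 in molar, a level 3.69-fold higher in incisor, with p = 0.215 and q = 0.355 in the authors' deposited table. The row of Ankzf1, a neighbour on the opposite strand, has the very same interval as that of Glb1l and stood at 9.04 and 4.55, with q = 0.436. Whether strand was used in counting is not given in the sources used here, so reads of the 2 genes may have been shared where they overlap, and 8.50% of the 32-base words in Glb1l transcripts also occur in other genes, Ankzf1 foremost. Glb1l2 (chromosome 9, 26763044 to 26806468, minus strand) stood at 2.83 FPKM in incisor and 0.220 in molar. The incisor level was 12.9 times the molar level, yet the gene was not called, with p = 0.112 and q = 0.252 in the authors' deposited table. So the 2 relatives had their higher level in the tissue where Glb1 had its lower one, though none of these differences passed.

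The other galactose-removing enzymes are Gla and Galc. Gla, the alpha-galactosidase whose loss causes Fabry disease (chromosome X, 134588169 to 134601005, minus strand), stood at 12.5 FPKM in incisor and 39.6 in molar. It was called higher in molar, 3.17-fold with a log2 fold of 1.66 and q = 0.00550 in the authors' deposited table. Galc clears galactosylceramide of myelin and is lost in Krabbe disease (chromosome 12, 98202300 to 98259459, minus strand). Its levels were low, 2.11 FPKM in incisor and 1.53 in molar. The authors' deposited table gives q = 0.445, so Galc was not called.

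Upstream DNA of the galactosidase genes was compared because lysosomal genes are known to be driven by TFEB and its relatives, which bind sites built around the letters CACGTG. In the 250 bases before the RefSeq start (GRCm38.p6, the assembly behind mm10), that word was found before 2 of the 8 members with a promoter entry, Glb1 and Gla, and before 6.05% of the 27025 genes in the promoter table. The word reads the same on both strands, and no other motif was searched. Shown 5′ to 3′ on each gene's own strand are Glb1 (chr9:114400828-114401077), with the word starting 48 bases before the start, Gla (chrX:134601006-134601255), with it at 227 and 194 bases before the start, and Hexa (chr9:59539290-59539539), printed because its level differed most between the tissues in the molar direction. Capitals mark the word, and Hexa has none in this window. The Hexa window ends at 59539539 while the Hexa row starts at 59539667, so the bases just before the row start lie outside it.
Glb1: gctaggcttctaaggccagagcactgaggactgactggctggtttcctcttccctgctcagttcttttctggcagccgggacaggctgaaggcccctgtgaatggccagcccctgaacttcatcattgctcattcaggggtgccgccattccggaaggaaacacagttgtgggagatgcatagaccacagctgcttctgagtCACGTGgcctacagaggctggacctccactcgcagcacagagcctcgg
Gla: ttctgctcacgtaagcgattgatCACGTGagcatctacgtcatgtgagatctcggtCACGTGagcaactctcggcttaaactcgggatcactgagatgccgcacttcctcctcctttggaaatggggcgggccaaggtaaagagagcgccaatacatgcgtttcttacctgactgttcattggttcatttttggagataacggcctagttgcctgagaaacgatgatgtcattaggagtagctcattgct
Hexa: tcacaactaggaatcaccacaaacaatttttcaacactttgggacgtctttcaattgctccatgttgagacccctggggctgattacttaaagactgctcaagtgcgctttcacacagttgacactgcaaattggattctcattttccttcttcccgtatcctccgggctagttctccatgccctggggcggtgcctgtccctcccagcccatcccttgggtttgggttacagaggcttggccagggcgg

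Of the 2 genes with the word, Gla was called higher in molar and Glb1 was not called. Of the other called members, Hexa and Neu1, neither had it in these 250 bases. A match is a string of letters, and binding was not measured here. Tfeb itself, named outside the rule for named genes, stood at 0.440 FPKM in incisor and 1.94 in molar, with q = 0.223 in the authors' deposited table.

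Among the members with the higher level in molar, Hexa had the largest fold. It encodes the alpha subunit of beta-hexosaminidase, which removes N-acetylgalactosamine from the ganglioside GM2 and is lost in Tay-Sachs disease (chromosome 9, 59539667 to 59565105, plus strand). It stood at 30.7 FPKM in incisor and 356 in molar, an 11.6-fold difference with a log2 fold of 3.54 and q = 0.000664 in the authors' deposited table. That q goes with the smallest p in the table, 5e-05, which 1414 tested genes share. Among tested genes, 1.76% had a larger log2 difference toward molar. In rank, Hexa stood at percentile 88.7 of tested genes by incisor FPKM and 97.9 by molar FPKM, a comparison that does not depend on the scale of either tissue. Hexa shares 11.4% of its 32-base transcript words with Tmem202, a neighbour on the other strand, whose own row stood at 0.428 and 2.55 FPKM. Of the exon bases of Hexa in the basic annotation, 0 are shared with another gene, whereas the words came from the full transcript set. The Tmem202 row (59518685 to 59525501) lies outside the Hexa row, but the annotated Tmem202 gene reaches into the Hexa interval. Whether reads were shared between Hexa and Tmem202 was not tested.

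The activator protein Gm2a, which lifts GM2 to beta-hexosaminidase, was not called, at 40.2 and 33.8 FPKM with q = 0.494, and is named outside the rule for named genes.

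Neu1 is the lysosomal sialidase, which removes terminal sialic acid and is lost in sialidosis (chromosome 17, 34931253 to 34937297, plus strand). It stood at 4.93 FPKM in incisor and 15.2 in molar, called 3.09-fold higher in molar with q = 0.00634 in the authors' deposited table. Neu1 and Glb1 are active in a complex with the protective protein Ctsa, a carboxypeptidase. By RNA level Ctsa stood above both, at 292 FPKM in incisor against 318 in molar, with q = 0.698 in the authors' deposited table, so it was not called. The RNA level of Ctsa was therefore 59.1 times that of Neu1 in incisor and 20.9 times in molar, and 21.8 and 11.0 times that of the Glb1 row. Protein was not measured, so these ratios do not give the make-up of the complex. Slc17a5, the lysosomal exporter of freed sialic acid, was called higher in molar, at 2.93 and 9.05 FPKM with q = 0.0256.

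The last pair went in opposite directions by level and neither was called. Gusb, the beta-glucuronidase that trims glycosaminoglycans (chromosome 5, 129989021 to 130002828, minus strand), stood at 21.2 FPKM in incisor and 40.3 in molar, with p = 0.0346 and q = 0.144 in the authors' deposited table. Man2b1, the alpha-mannosidase of glycoprotein breakdown (chromosome 8, 85083269 to 85098739, plus strand), stood at 34.0 FPKM in incisor and 17.7 in molar, with p = 0.0286 and q = 0.125 in the authors' deposited table. Their log2 folds, 0.93 for Gusb and -0.94 for Man2b1, are smaller in size than 1.10, the smallest absolute log2 fold of any called gene with a level above 0 in both tissues. With equal FPKM totals and a pseudocount of 1, the log2 difference was 0.32 for Gusb and -1.46 for Man2b1. The fold of Galc lies inside that limit of 1.10 too, and the Glb1 row is just beyond it.

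The order of levels changed between the tissues. In incisor it ran from Man2b1 (34.0 FPKM) and Hexa (30.7) through Gusb (21.2), Glb1 (13.4), Gla (12.5), Glb1l (10.9) and Neu1 (4.93) to Glb1l2 (2.83) and Galc (2.11). In molar Hexa (356) led, followed at a distance by Gusb (40.3), Gla (39.6), Glb1 (29.0), Man2b1 (17.7), Neu1 (15.2), Glb1l (2.96), Galc (1.53) and Glb1l2 (0.220). FPKM is a level per transcript length, which allows genes to be ordered, but with no spread for any level it cannot be said which neighbours differ. The 9 levels summed to 133 FPKM in incisor and 503 in molar, and Hexa made up 23.2% and 70.9% of those sums. Without Hexa the sums were 102 and 146.5, a ratio of 1.44. Over all tested genes FPKM summed to 539508 in incisor and 810349 in molar, a larger ratio than 1.44. Without Hexa the sum of the members thus rose no more than that of all tested genes. Ranks within a tissue do not depend on its scale. By percentile among tested genes, Neu1 stood at 64.8 in incisor and 79.7 in molar, Gla at 79.3 and 87.9, and the Glb1 row at 80.1 and 85.5. Man2b1 stood at 89.5 and 81.1, Glb1l at 77.5 and 55.3, and Glb1l2 at 55.0 and 12.8. Gusb stood at 85.1 and 88.01, and Galc at 50.1 and 42.5. The genes with the higher FPKM in molar thus also ranked higher there, and the other 4 lower.

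Calls did not follow the size of the fold. Dividing the authors' log2 fold by the authors' test statistic gives the fold per unit of statistic, a number that is larger where the statistic is small for its fold; how the statistic was made is not given in the sources used here. This ratio was 1.40 for Glb1l and 1.57 for Glb1l2, against 0.51 to 0.90 for the other 7 genes and a median of 0.83 over 15875 tested genes above 0 in both tissues. Glb1l and Glb1l2 stood at percentiles 72.7 and 77.9 of that ratio, and Hexa, Gla and Neu1 at 6.71, 4.25 and 10.6. The uncalled Man2b1, Gusb and Glb1 stood nearby at 8.07, 18.0 and 19.5, and Galc at 54.5. Glb1l2 (12.9-fold) and Glb1l (3.69-fold) therefore had larger folds than the called Gla (3.17-fold) and Neu1 (3.09-fold) and were not called. The part of the interval shared with Ankzf1 in the statistic of Glb1l was not tested.

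**Figure D2:**
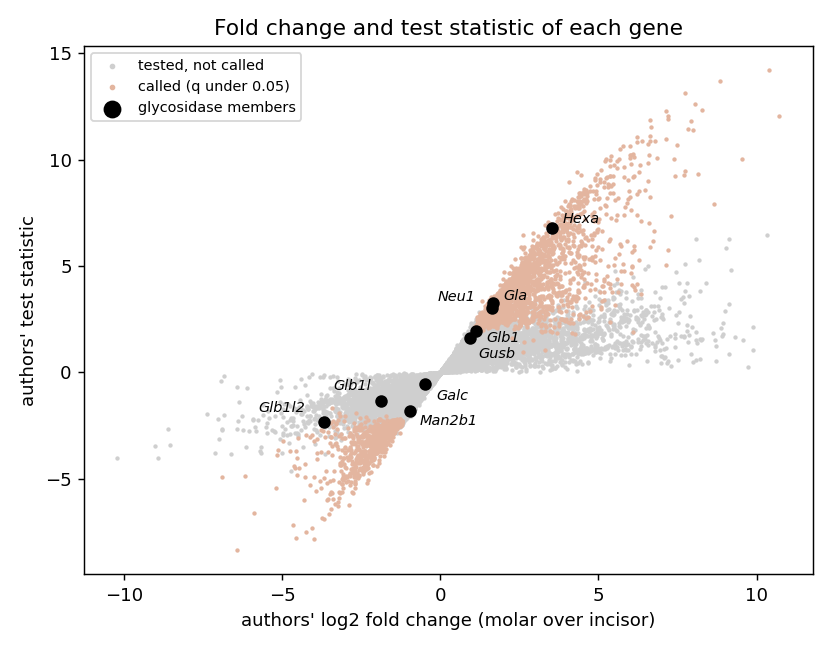
The authors' log2 fold change (molar over incisor, x axis) against the authors' test statistic (y axis) for the 15875 tested genes above 0 in both tissues, with called genes tinted and the 9 glycosidases in black. Hexa, Gla and Neu1 lie on the steep edge of the cloud, as does the uncalled Man2b1, while Glb1l and Glb1l2 lie among uncalled genes whose statistic is small for their fold.

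Outside the 9 genes, 67 other lysosomal and related genes were listed in 7 groups, of which 66 were tested. They include related enzymes, delivery genes and regulators, so not all of them act inside the lysosome. Calls toward molar numbered 9 and calls toward incisor 3, where the shares over all tested genes were 11.9% and 4.28%. Those shares also stand beside the counts of each list below. The median log2 difference of these lysosomal and related genes was -0.03, and 33 had the higher level in each tissue. With equal FPKM totals that median was -0.56, beside 0.32 for the members. Equal totals lower every molar level by the same factor, and the median over all tested genes was not recomputed there. Medians with equal totals are therefore comparable only with each other. Among other glycosidases and related enzymes, the authors' deposited table calls 4 of 20 higher in molar and 0 in incisor. An unadjusted p under 0.05 gives the same 4 and 0. Among those called were Fuca1, the fucosidase lost in fucosidosis (7.16 and 95.5 FPKM, 13.3-fold), Aga, which cuts the sugar-asparagine link (38.3 and 130.7), and Ctbs, which trims chitobiose (1.13 and 5.74). The group's median was -0.11, or -0.61 with equal FPKM totals.

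The sulfatase group, which prepares sulfated sugars for these glycosidases, had 0 of 10 genes called in the authors' deposited table, with 1 at an unadjusted p under 0.05 (Galns, with the higher level in incisor, named for this count alone), and its median was -0.27, or -0.72 with equal totals. Sumf2, a relative of the sulfatase-activating enzyme, stood at 32.1 FPKM in incisor and 24.03 in molar. Of the 3 activators and protective proteins 0 were called, and 0 had an unadjusted p under 0.05 in the authors' deposited table. Psap, precursor of the saposins that help Galc and Gla reach lipids, stood at 218 and 269 with q = 0.431.

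Of the 8 delivery genes, 1 was called in each direction, beside 11.9% of all tested genes toward molar and 4.28% toward incisor. Gnptg, a subunit of the enzyme that adds the mannose 6-phosphate tag, was called 12.6-fold higher in molar, at 6.74 and 85.2 FPKM with q = 0.000664 in the authors' deposited table. Igf2r, the large receptor for that tag, was called higher in incisor at 6.003 and 1.83 with q = 0.0476. M6pr, the small receptor (141 and 64.3, q = 0.115), and Nagpa, which uncovers the tag (7.82 and 8.79, q = 0.687), were not called. The group's median was -0.17, which became 0.31 with a minimum of 5 FPKM and -0.59 with equal totals.

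Lipid enzymes and exporters had a median of -0.58, or -1.16 with equal totals, and the authors' deposited table calls 1 of 10 higher in molar, Slc17a5, and 2 toward incisor. The latter were Lipa, the acid lipase (87.1 and 34.6 FPKM, q = 0.0424), and Ctns, the cystine exporter (22.6 and 6.80, q = 0.0299). Npc2, a cholesterol carrier (264 and 387), and Asah1, acid ceramidase (73.9 and 54.2), were not called. Among membrane proteins, the tetraspanin Cd63 (711 and 3773) and Laptm4a (415 and 1810) were called higher in molar, 2 of 8, while Cd68 (880 and 1015) and Laptm5 (519 and 436) were not, and the median was 0.17, or -0.42 with equal FPKM totals. Of 7 regulators, Flcn, which restrains TFEB and TFE3, was called higher in molar (6.88 and 21.5, q = 0.00840), and Tfec (8.20 and 11.2) and Tfe3 (7.19 and 11.6) were not. That group's median was 0.51, and -0.024 with equal FPKM totals.

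**Figure D3:**
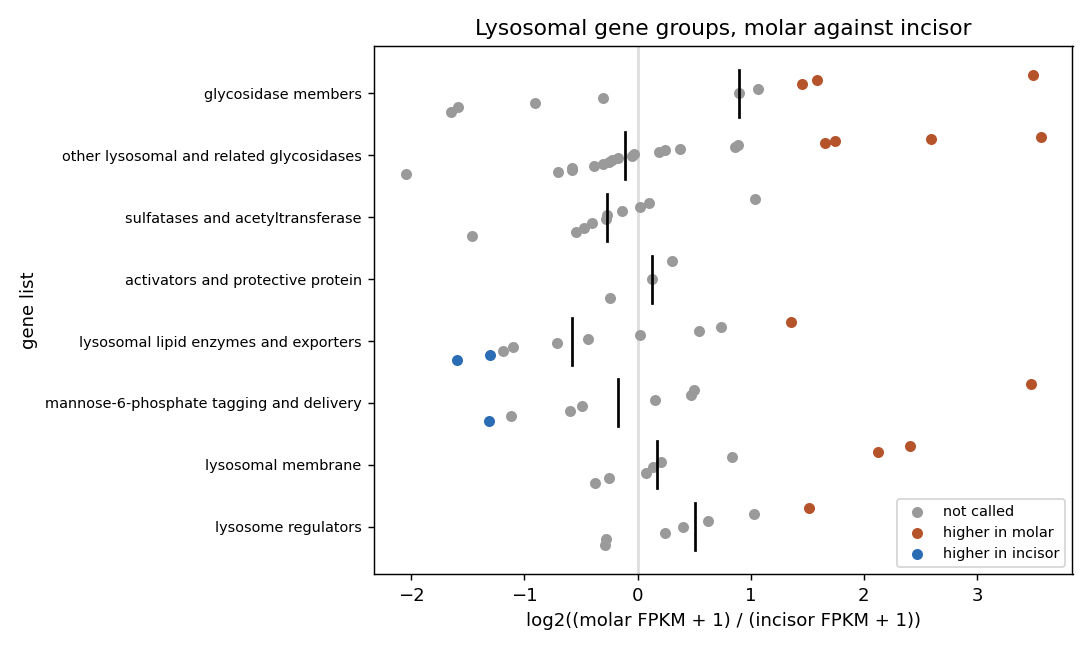
Each point is a tested gene, placed by log2((molar FPKM + 1) / (incisor FPKM + 1)) on the x axis and by its gene list on the y axis; colour gives the authors' call and the black bar the list's median over genes at 1 FPKM or more in either tissue. The 9 members spread from -1.65 to 3.49 around a median of 0.90, and the sulfatases lie around -0.27.

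The sorted fractions held RNA of several cell types, and their shares could not be measured, so a different number of cells and a different amount of RNA per cell cannot be told apart for any gene here. Macrophages and osteoclasts are rich in lysosomal enzymes. Of 15 macrophage markers, the authors' deposited table calls 6 higher in molar and 2 in incisor, and their summed FPKM was 5478 in incisor and 9653 in molar, 1.76 times as much, with none at 0. Lyz2 (1903 and 3340) and C1qb (1679 and 2145) led the list and were not called, and C1qa was called higher in molar (255 and 757). Cx3cr1 (186 and 34.9) and Mpeg1 (49.0 and 4.67), named outside the rule for named genes, were called higher in incisor. Of 9 osteoclast markers 2 were called higher in molar, Acp5 (155 and 503) and Ocstamp (0.359 and 7.84), and Calcr was listed at 0 in incisor. Their sums were 333 and 686, with Ctsk at 162 and 161, and the rise of the sum lay almost wholly in Acp5. The Acp5 row has a wide interval (chromosome 9, 22055411 to 22389206), and whether other genes add to its level was not tested. By level, 6 of the 9 osteoclast markers stood higher in molar and 3 in incisor. Those 3 were Ctsk and, named outside the rule for named genes, the uncalled Mmp9 (9.68 and 5.47) and Atp6v0d2 (1.61 and 0.681).

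Mural markers, which stand for the reporter's own cell type, were present in both tissues, and the authors' deposited table calls 2 of 14 higher in molar and 4 in incisor. Their summed FPKM was 923 in incisor and 371 in molar, led by Rgs5 (537 and 127) and Tagln (153 and 12.4), with Pdgfrb at 30.3 and 12.6. The 2 called higher in molar, named outside that rule, were Kcnj8 (16.0 and 108) and Des (0.155 and 3.17). None was at 0. Endothelial markers summed to 21.7 and 302, with 10 of 11 called higher in molar, and erythroid markers to 7.13 and 204, with 4 of 7 called higher in molar and 1 in incisor. Dental epithelial markers summed to 23525 and 2643, with 9 of 13 called higher in incisor. Pulp fibroblast markers summed to 2427 and 4356, with 2 of 8 called toward molar and 3 toward incisor. Odontoblast and osteoblast markers summed to 561 and 358, with 1 of 9 and 2 of 9, and Schwann and glial markers to 45.7 and 63.1, with 2 of 6 tested and 0. At an unadjusted p under 0.05, 1 of the Schwann and glial markers stood toward incisor. The sum of the 9 glycosidases was 3.79 times as high in molar, or 1.44 times without Hexa. The sums over all tested genes, 539508 FPKM in incisor and 810349 in molar, have a ratio above that 1.44 and below the macrophage ratio of 1.76. The sums of every marker list are to be read beside those of all tested genes. The part of these cell types in the glycosidase levels was not tested.

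**Figure D4:**
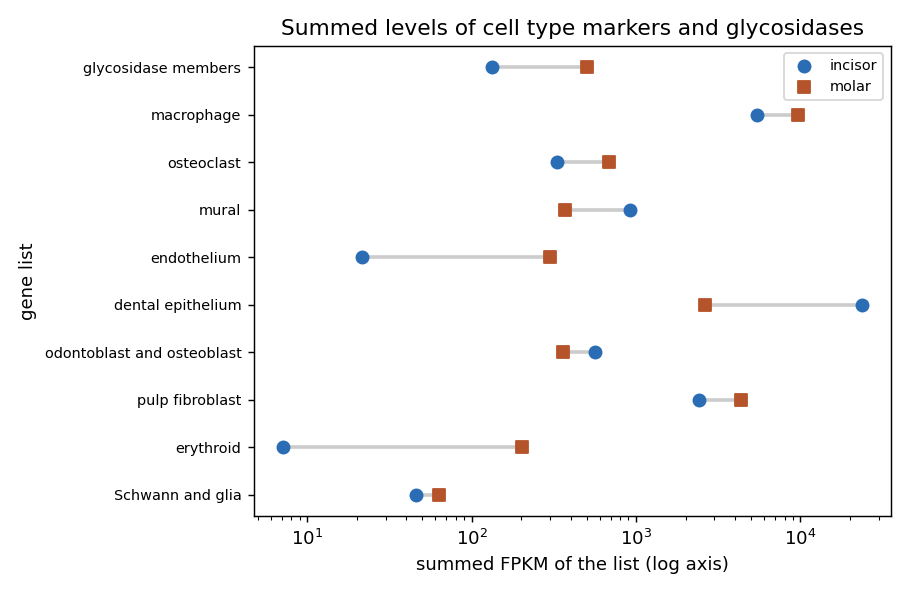
Summed FPKM (log axis) of each list of cell type markers and of the 9 glycosidases in incisor (circles) and molar (squares). The glycosidase sum was 133 in incisor and 503 in molar, the macrophage sum 5478 and 9653 and the mural sum 923 and 371.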

How the data were processed

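RNA of FDG-sorted pulp cells was sequenced from 2 molar and 2 incisor libraries. The deposited table holds 1 FPKM per gene and tissue, a log2 fold change (molar over incisor, without pseudocount), a test score, a p-value and a q-value, per the file headers. The authors combined the libraries of each tissue, and mm10, Trim Galore, HISAT2 and edgeR appear in the submitters' processing notes without a role. Which tool, annotation and scaling lie behind the table is not stated in those notes or the header. Conditions were tied to tissues by each library's description label. Nothing says whether libraries were separate animals, so the q values speak for these libraries, and the spread may be technical.

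Of 24216 rows the authors marked 18770 as tested. Start positions were shifted by 1 base to be 1-based. Since each tissue has 1 value, no model was fitted across genes here, and the authors' q under 0.05 served as the call. List medians of log2 differences used a pseudocount of 1 FPKM, which understates differences of low genes, over genes at 1 FPKM or more in either tissue. The genes named are the 9 members, and from each lysosomal list the called genes and the 2 most abundant uncalled ones; from marker lists, those of macrophages, osteoclasts and mural cells with the highest levels, and called genes among the first 3. The same rule covers the other marker lists, which are given as sums and counts only, and some genes that the rule covers are not reported here. Members and lists were chosen with earlier results of these data known. Promoters came from RefSeq (GRCm38.p6), with an entry for 8 of the 9 members, and exons and transcript words of 32 bases from GENCODE M21. Alternatives were other pseudocounts, minimum levels, scalings and q thresholds. The median calculation was tested on simulated data built only from genes with high incisor levels, so that test does not cover low genes. Python 3.11.15 with pandas 2.3.3 was used.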

Additional observations from a re-analysis of the deposited data

How the results depend on the processing

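The 3 calls higher in molar and the 0 calls higher in incisor among the 9 glycosidases were the same at q under 0.01 and with the authors' own mark, which reached up to q = 0.0600. All 54 recomputed log2 differences of single members kept their sign, but a pseudocount cannot change a sign. The scalings all lowered molar against incisor, so they could change the sign only of members with the higher level in molar. The members' median of 0.90 was 0.92 with a pseudocount of 0.1, 0.79 with 5, 0.93 with none, 1.06 with a minimum of 5 FPKM, 0.85 with median centring, 0.32 with equal FPKM totals and 0.24 with equal totals after leaving out the 50 highest genes. It was 0.30 without Glb1, 0.30 without Hexa and 0.98 without Glb1l; leaving out Glb1l or Hexa and using no pseudocount were chosen after seeing the data. For the other lysosomal and related genes, the 3 calls higher in incisor fell to 0 at q under 0.01. Their median of -0.03 was -0.0022 with no minimum, -0.0022 with a minimum of 5 FPKM and -0.069 with median centring. It was -0.56 with equal totals and -0.63 with equal totals without the 50 highest genes. Over all genes, 804 calls higher in incisor became 426 at q under 0.01. Some list medians changed sign, and equal totals lower every molar level by the same factor. With equal totals, and then without the 50 highest genes, they were -0.47 and -0.54 for activators, -0.42 and -0.50 for membrane proteins and -0.024 and -0.093 for regulators, and delivery genes stood at 0.31 with a minimum of 5 FPKM. The cause was not tested. No paired analysis was possible because the table holds 1 combined value per tissue, and for the same reason no library could be left out. Depth is unknown, so the precision of low levels such as 0.220 FPKM for Glb1l2 in molar cannot be given.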
